A study of Homo sapiens with 9 samples.

Results

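The transcriptome of HepG2 cells given the compound PQY23_1 was compared with that of cells given the solvent, across all genes that passed an expression filter. HepG2 cells come from a human liver carcinoma and still perform much of what hepatocytes do. The treated group received 50 µM PQY23_1 and the control group 0.1% DMSO, with 3 libraries in each. These 6 libraries are all PQY23_1 and DMSO libraries among the 9 of the series; the other 3 came from cells given 50 µM PQY09. PQY09 is Butyrolactone I by the title of the series, a fungal butenolide known to inhibit cyclin dependent kinases. The title calls PQY23_1 a derivative and states that targets of such compounds were sought. The sources used here do not give the exposure time, the structure of PQY23_1 or the solvent content of the compound wells. They also do not say whether replicate libraries are separate cultures, and p-values therefore cover only the spread between the samples, which may be technical. The values come from 1 cell line at 1 dose.

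Hepatocytes secrete plasma proteins, clear foreign compounds through oxidation, conjugation and export, balance glucose and lipid supply, and control body iron through the hormone hepcidin. Tumour cells of hepatocyte origin keep parts of this programme and add growth factor, adhesion and matrix genes. Immediate early genes are a separate layer: transcription factors and feedback inhibitors whose mRNAs rise within a short time after a stimulus, without new protein synthesis.

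Counts summed to between 87122734 and 107538450 in the DMSO libraries and between 85050531 and 100153246 in the PQY23_1 libraries. Of 60612 genes listed, 20157 were tested. Levels are in CPM, counts scaled to a common library total, and folds are given with log2 values ± SE. Principal component 1 held 30.3% of the variance and separated the groups, with DMSO at -22.7 to -12.7 and PQY23_1 at 9.49 to 26.2. Components 2 and 3 held 24.0% and 18.2%, and the groups overlapped on both. Treated libraries were spread widely there, with PQY23_1 replicates 1 and 3 at 25.9 and -24.9 on component 2. PQY23_1 replicate 2 lay at -29.9 on component 3. Correlations were 0.951 to 0.972 between libraries of the same group and 0.947 to 0.961 between groups, so these ranges overlapped. Mitochondrially encoded genes took 12.6% to 14.1% of the counts under DMSO and 14.5% to 16.4% under PQY23_1; their part in the differences below was not tested. Hepatocyte markers were all present, and their summed level was 30710 to 33646 CPM under DMSO and 26289 to 28435 CPM under PQY23_1. Among these 10 markers 1 (TF) was called lower and none higher, and 3 lay above 0. APOB, the most abundant, was at 11314 ± 1696 and 8639 ± 2007 CPM (SD, n = 3), with overlapping groups and no call. ALB was at 6580 ± 21.6 and 6488 ± 305 CPM. Fibroblast and stellate markers summed to 61.4 to 68.9 and 61.5 to 68.4 CPM, with COL1A2 at 0, and endothelial markers to 6.52 to 7.01 and 9.0 to 11 CPM, with KDR, TEK, CLEC4G and ERG at 0. The leukocyte list summed to 1036 to 1413 and 949 to 1152 CPM, nearly all of it lysozyme (LYZ), and PTPRC, MARCO, CD3E and HBB were at 0. In bulk RNA, a change in the share of cells and a change in RNA per cell cannot be told apart.

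The edgeR quasi-likelihood test called 514 genes (2.55%) at an adjusted p below 0.05, with 305 higher (1.51% of the genes tested) and 209 lower (1.04%). After rescaling to equal FPKM sums (TPM), limma gave 155 higher and 591 lower, and the median log2 change of the genes in that fit was -0.11. Most changes were small: 146 rises and 133 falls were under 1.5-fold, 101 and 49 lay between 1.5-fold and 2-fold, and 58 and 27 reached 2-fold. All 514 called genes had groups that did not overlap, against 22.5% of all genes tested. The call and the overlap rest on the same values, so the lack of overlap is no separate support. Called genes were more abundant than the rest, with a median of 26.5 CPM for rises and 59.9 CPM for falls against 7.42 CPM for all genes tested. Among genes with a mean of at least 5 CPM, 4.11% were called, and among protein coding genes 3.53%. Of the 60 gene lists used below, 47 had a share of calls above 2.55%. The lists were chosen with earlier results of these data known. A share above 2.55% therefore describes a list and is no test of enrichment. The number of calls depended on single libraries: there were 153 higher and 107 lower without DMSO replicate 1, 76 and 62 without DMSO replicate 2, and 122 and 90 without DMSO replicate 3. Without PQY23_1 replicates 1, 2 and 3 in turn, the counts were 163 and 151, 195 and 147, and 119 and 101. Without PQY09 replicates 1, 2 and 3, which share the estimate of the spread, they were 187 and 134, 205 and 166, and 198 and 161. In all, 62 rises and 58 falls were called in every one of these 9 fits.

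**Figure D1:**
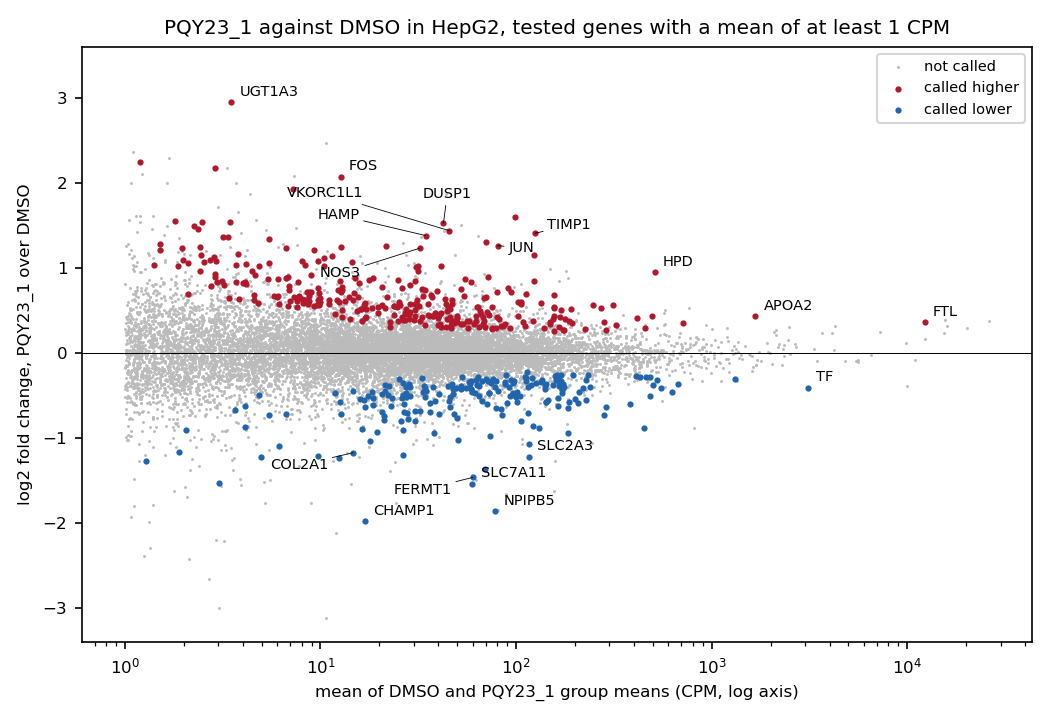
Log2 fold change under PQY23_1 (vertical axis) against mean level in CPM (horizontal log axis) for genes with a mean of at least 1 CPM, where each point is a gene. Red points are called higher and blue points called lower at an adjusted p below 0.05; most called points lie within 1 log2 unit of 0, with UGT1A3 highest at 2.96 and CHAMP1 lowest at -1.98.

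The lowest p of all genes belonged to VKORC1L1, a paralogue of the vitamin K epoxide reductase VKORC1 that regenerates reduced vitamin K (chromosome 7, 65873074 to 65959563, hg38). VKORC1L1 stood at 23, 25.2 and 25.3 CPM in the DMSO libraries and at 65.9, 67.7 and 66 CPM under PQY23_1. The 3 treated libraries were almost equal and lay far above the 3 controls, a rise of 2.71-fold (log2 1.44 ± 0.06, adjusted p = 9.2e-05). The classical reductase VKORC1 gave 45, 41.7 and 46.7 CPM under DMSO and 45.3, 42.5 and 115 CPM under PQY23_1, so that only treated replicate 3 stood out (log2 0.60 ± 0.39, adjusted p = 0.51). The carboxylase GGCX, which uses reduced vitamin K to modify clotting factors, was at 109.7 ± 4.22 CPM (SD, n = 3) under DMSO and 101 ± 7 CPM under PQY23_1 (adjusted p = 0.44). Of 23 tested genes of the vitamin K cycle and clotting, 2 rose and none fell (8.7% called, against 2.55% of all genes tested). The median log2 change was 0.09 (-0.10 on the TPM scale) against 0.01 for all genes tested. The second rise was that of coagulation factor F11 (log2 0.30 ± 0.06, adjusted p = 0.04), whose call was lost in each of the 9 leave-outs.

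Matrix and galectin genes held several of the most reproducible changes. TIMP1, a secreted inhibitor of matrix metalloproteinases (chromosome X, 47582408 to 47586789), was at 70.7, 65.4 and 68.7 CPM under DMSO and at 203, 164 and 176 CPM under PQY23_1. Its lowest treated value was far above its highest control value, and the rise was 2.65-fold (log2 1.41 ± 0.09, adjusted p = 0.00035). SYN1 overlaps TIMP1 on the other strand, and the strand setting of the counting is not given. LGALS1, the secreted sugar-binding protein galectin 1 (chromosome 22, 37675636 to 37679802), read 88.9, 89.4 and 86.6 CPM in the controls and 163, 154 and 159.5 CPM in the treated libraries, so that the groups were tight and apart (1.8-fold; log2 0.85 ± 0.05, adjusted p = 0.00035). LGALS3, galectin 3, rose by a log2 of 0.58 ± 0.09 (adjusted p = 0.016). TIMP3, a matrix-bound inhibitor of the same family as TIMP1, moved the other way, from 174 ± 7.03 to 134 ± 3.24 CPM (SD, n = 3; log2 -0.38 ± 0.06, adjusted p = 0.015). MMP2, gelatinase A, rose by 0.62 ± 0.13 (adjusted p = 0.04), a call that no leave-out kept. Of 17 tested metalloproteinases and inhibitors, 2 rose and 1 fell (17.6% called, against 2.55% of all genes tested). The median log2 was 0.11, and -0.11 on the TPM scale.

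Collagens did not move together: of 24 tested genes of collagens and their crosslinking, 2 rose and 3 fell (20.8% called, against 2.55% of all genes tested, with a median log2 of -0.05). COL2A1, the main collagen of cartilage (chromosome 12, 47972967 to 48004554), gave 19.9, 20.9 and 20.2 CPM under DMSO and 8.5, 8.94 and 9.63 CPM under PQY23_1. The treated libraries all lay well below the controls, a fall of 2.25-fold (log2 -1.17 ± 0.07, adjusted p = 0.00035). COL6A1, a chain of the microfibrillar collagen VI, rose by 0.70 ± 0.12 (adjusted p = 0.023). TGM2, a crosslinking transglutaminase, rose from 55.9 ± 3.54 to 76.7 ± 3.33 CPM (log2 0.46 ± 0.06, adjusted p = 0.01). LOX, which crosslinks collagen through lysines, fell by 0.72 ± 0.10 (adjusted p = 0.011), and the collagen chaperone SERPINH1 by 0.27 ± 0.05 (adjusted p = 0.034), kept in 1 leave-out. COL7A1, the anchoring fibril collagen, is outside that list and was chosen after its values were seen; it was at 11.4 ± 0.821 CPM under DMSO and 20.2 ± 1.77 CPM under PQY23_1 (log2 0.82 ± 0.09, adjusted p = 0.0042). Among 24 matrix glycoproteins and galectins (16.7% called), LGALS1 and LGALS3 rose and 2 fell. These were thrombospondin 1 (THBS1, log2 -0.64 ± 0.08, adjusted p = 0.007) and SPARC (-0.32 ± 0.07, adjusted p = 0.043), a call that no leave-out kept.

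Adhesion and junction genes were called in both directions. FERMT1, the integrin activator kindlin 1 (chromosome 20, 6074845 to 6123030), was at 87.4, 91.6 and 84.9 CPM under DMSO and at 28.4, 33 and 34.3 CPM under PQY23_1. Every treated library lay far below the lowest control, a fall of 2.76-fold (log2 -1.46 ± 0.20, adjusted p = 0.01). TNS1, tensin 1, which ties integrins to actin, fell from 13.6 ± 0.774 to 5.86 ± 1.96 CPM (log2 -1.21 ± 0.22, adjusted p = 0.028), and its call held in 2 of the 9 leave-outs. The collagen receptor chain ITGA1 rose (log2 0.37 ± 0.07, adjusted p = 0.024). These were the 3 calls among 26 tested integrins and adaptors (11.5% called, against 2.55% of all genes tested, with a median log2 of -0.06). CLDN1, the tight junction protein claudin 1 (chromosome 3, 190305707 to 190322446), read 136, 138 and 132 CPM in the controls and 77.5, 78.2 and 76.7 CPM under PQY23_1. The values within each group were close together, and the fall was 1.75-fold (log2 -0.80 ± 0.05, adjusted p = 0.00035). CLDN1 was the 1 called member among 22 junction genes (4.55% called), of which 12 lay above 0 (median log2 0.01). Of 24 tested actins and SRF targets 8.33% were called. The actin-binding protein TAGLN fell (log2 -0.80 ± 0.14, adjusted p = 0.02) and the LIM protein FHL2 rose (0.62 ± 0.12, adjusted p = 0.039, kept in 1 leave-out). Of 17 YAP and TEAD targets 17.6% were called. The LIM scaffold AJUBA (-0.47 ± 0.05, adjusted p = 0.0031) and the GTPase activating protein DLC1 (-0.39 ± 0.08, adjusted p = 0.039, kept in 1 leave-out) fell. The membrane repair protein MYOF rose (0.97 ± 0.16, adjusted p = 0.018).

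**Figure D2:**
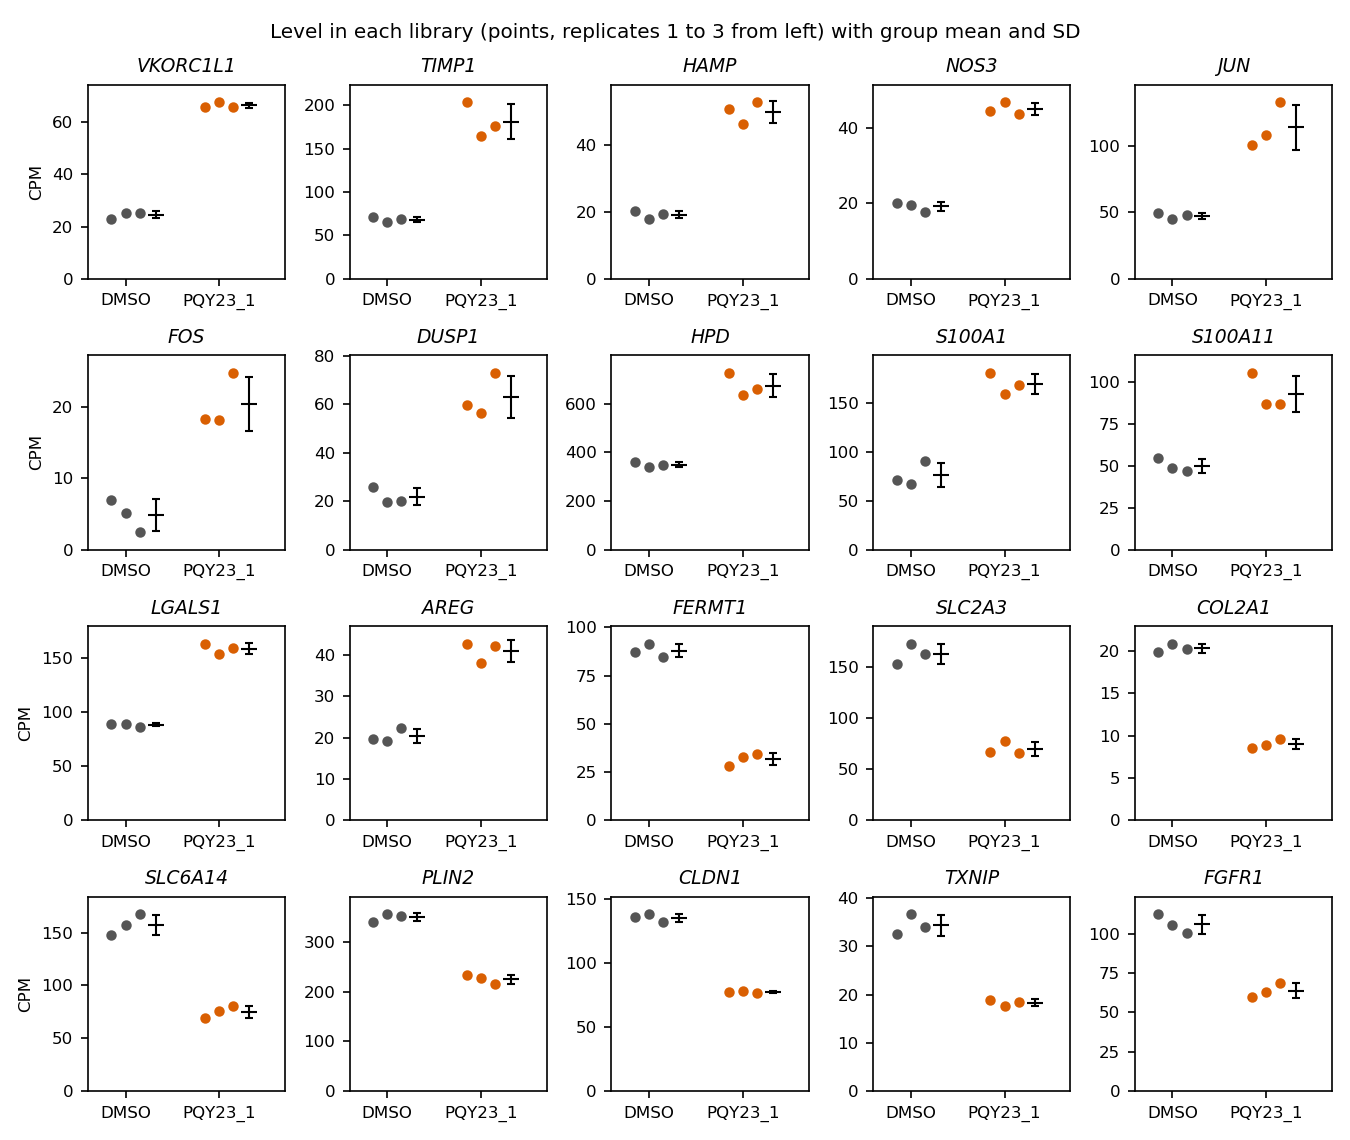
Level in CPM (vertical axes, from 0) of 20 called genes in each library, with DMSO in grey and PQY23_1 in orange; points are replicates 1 to 3 from the left and the bars are group mean and SD (n = 3). The groups do not overlap in any panel; VKORC1L1, CLDN1 and LGALS1 have narrow groups, and FOS and S100A1 wider ones.

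Immediate early genes rose in part. Of 36 tested members 7 rose and 1 fell (22.2% called, against 2.55% of all genes tested), and 23 lay above 0. The median log2 change was 0.20, with 0.10 on log2(FPKM + 1) and 0.01 on the TPM scale over the members in those fits. The promoters of JUN, DUSP1 and EGR1 are shown because these members are classical immediate early genes and the windows hold the letters of response elements known from such genes. Each runs 5′ to 3′ from 250 bases before to 50 after the RefSeq start (GRCh38.p14), and capitals mark the matches: JUN on the minus strand of chr1:58783998-58784297, DUSP1 on the minus strand of chr5:172771146-172771445 and EGR1 on the plus strand of chr5:138465229-138465528.
JUN: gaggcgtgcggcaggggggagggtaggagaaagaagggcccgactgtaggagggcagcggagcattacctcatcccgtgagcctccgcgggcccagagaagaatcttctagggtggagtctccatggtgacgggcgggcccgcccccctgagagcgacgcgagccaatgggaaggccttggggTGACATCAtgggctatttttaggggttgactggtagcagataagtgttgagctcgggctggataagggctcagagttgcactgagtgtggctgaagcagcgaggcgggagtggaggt
DUSP1: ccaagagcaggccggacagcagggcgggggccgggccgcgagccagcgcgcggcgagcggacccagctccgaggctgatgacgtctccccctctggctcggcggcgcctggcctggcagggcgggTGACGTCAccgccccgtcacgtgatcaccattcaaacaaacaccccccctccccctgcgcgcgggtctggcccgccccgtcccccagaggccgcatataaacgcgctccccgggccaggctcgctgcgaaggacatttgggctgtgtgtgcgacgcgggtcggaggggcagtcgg
EGR1: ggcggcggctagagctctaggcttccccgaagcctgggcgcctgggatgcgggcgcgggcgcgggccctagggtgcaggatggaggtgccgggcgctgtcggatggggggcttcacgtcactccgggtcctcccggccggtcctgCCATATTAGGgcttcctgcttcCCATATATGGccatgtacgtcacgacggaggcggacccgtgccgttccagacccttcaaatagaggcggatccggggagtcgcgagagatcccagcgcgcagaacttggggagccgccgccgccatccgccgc
The letters TGACGTCA (cyclic AMP response element), TGACATCA (the variant known from the JUN promoter) and the CArG box of serum response factor were searched on both strands, and no matches overlapped. DUSP1 holds TGACGTCA from base -125, as do 1.85% of 35116 promoters of this length. JUN holds TGACATCA from base -67 (2.61% of promoters), and EGR1 holds 2 CArG boxes, from bases -105 and -83 (1.29% of promoters hold at least 1). Of the 7 members called higher, 6 had a promoter in the table, and none of FOS, NR4A1 and ZFP36 held these letters in this window. A match is a description of letters and not a binding site measured here.

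JUN, one of the proteins that form the AP-1 transcription factor (chromosome 1, 58780791 to 58784047), stood at 49.7, 44.9 and 47.7 CPM under DMSO and at 100.4, 108 and 133 CPM under PQY23_1. Treated values were scattered more than control values, and all lay above them (2.4-fold; log2 1.26 ± 0.11, adjusted p = 0.0012). Its partner FOS was at 7.03, 5.12 and 2.45 CPM in the controls and at 18.3, 18.2 and 24.9 CPM in the treated libraries, and the rise of 4.21-fold (log2 2.07 ± 0.34, adjusted p = 0.018) was kept in 7 of the 9 leave-outs. DUSP1, a phosphatase that switches off MAP kinases, gave 26, 19.5 and 20.2 CPM under DMSO and 59.9, 56.5 and 73 CPM under PQY23_1, again with no overlap (2.88-fold; log2 1.53 ± 0.15, adjusted p = 0.0023). EGR1, a zinc finger factor, read 35, 25.1 and 21.7 CPM in the controls and 46.5, 51.7 and 68.5 CPM in the treated libraries. The groups did not overlap but were near each other, and the call (log2 1.03 ± 0.20, adjusted p = 0.035) held in 1 of the 9 leave-outs. The nuclear receptor NR4A1 rose by 1.08 ± 0.15 (adjusted p = 0.011), ZFP36, which destabilises mRNAs with AU-rich elements, by 1.02 ± 0.12 (0.0045), and the ERK phosphatase DUSP5 by 0.76 ± 0.14 (0.025). ETV4, an ETS factor, was the member that fell, from 237 ± 8.18 to 163 ± 7.37 CPM (log2 -0.54 ± 0.05, adjusted p = 0.0024).

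Genes of growth factor signalling moved in both directions, with 2 of 27 tested members higher and 4 lower (22.2% called, against 2.55% of all genes tested, with a median log2 of -0.08). The ligands AREG and EREG, which bind the EGF receptor, were higher. AREG, amphiregulin, went from 19.7, 19.1 and 22.4 CPM to 42.8, 38.1 and 42.2 CPM, with every treated value above every control (2.01-fold; log2 1.01 ± 0.08, adjusted p = 0.001). EREG, epiregulin, rose by 0.91 ± 0.19 (adjusted p = 0.047), a call that no leave-out kept. The receptors that were called were lower. FGFR1, a fibroblast growth factor receptor, was at 112, 106 and 100.4 CPM under DMSO and 59.9, 63.1 and 68.8 CPM under PQY23_1 (1.66-fold lower; log2 -0.73 ± 0.07, adjusted p = 0.0021). ERBB2, a receptor of the EGF receptor family, fell by 0.51 ± 0.06 (adjusted p = 0.0037), EPHA2, an ephrin receptor, by 0.35 ± 0.06 (0.02), and TYRO3, a receptor of the TAM family, by 0.38 ± 0.08 (0.039), the last kept in 1 leave-out. Outside that list, NKD1, an inhibitor of WNT signalling and itself known as a WNT target, fell from 571 ± 16 to 401 ± 19.5 CPM (log2 -0.51 ± 0.05, adjusted p = 0.0023), the 1 call among 29 WNT and NOTCH genes.

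In the TGF-beta and BMP list 1 of 22 tested members rose and 3 fell (18.2% called, against 2.55% of all genes tested, with a median log2 of 0.06, and -0.18 on the TPM scale). INHBE, an activin subunit secreted by hepatocytes, was at 47.5, 50.2 and 51.8 CPM under DMSO and 24.9, 27.5 and 25.5 CPM under PQY23_1, with every treated value below every control (1.92-fold lower; log2 -0.94 ± 0.07, adjusted p = 0.00067). The receptor TGFBR1 fell by 0.49 ± 0.08 (adjusted p = 0.017), and the latent TGF-beta binding protein LTBP2 rose by 0.65 ± 0.11 (0.025). The co-receptor TGFBR3, betaglycan, was chosen after its values were seen and fell from 171 ± 10.9 to 92.3 ± 15.2 CPM (log2 -0.89 ± 0.12, adjusted p = 0.0082).

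Among 21 tested NF-kB and chemokine genes 5 fell and 1 rose (28.6% called, against 2.55% of all genes tested, with a median log2 of -0.11). The chemokine CCL20 was at 54.9, 64.9 and 69.5 CPM under DMSO and at 39.6, 33.3 and 38.1 CPM under PQY23_1, with no overlap (log2 -0.77 ± 0.10, adjusted p = 0.0095). The adhesion receptor ICAM1 fell from 199 ± 9.27 to 144 ± 5.13 CPM (log2 -0.47 ± 0.06, adjusted p = 0.0048). The falls of NFKB1, TNFAIP3 and TNFRSF10B had log2 values of -0.34, -0.46 and -0.27, and at most 1 leave-out kept any of them. The neutrophil chemokine CXCL8 was the member that rose, from 3.83, 3.95 and 3.66 CPM to 6.7, 7.14 and 7.16 CPM (log2 0.88 ± 0.12, adjusted p = 0.01). Of 26 tested interferon response genes, HLA-B, a class I antigen presenting molecule whose gene shares sequence with other class I genes, was the 1 call (-0.72 ± 0.13, adjusted p = 0.03).

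The S100 genes, which encode small calcium-binding proteins, were looked at as a family after their values were seen, so their count is a description. All 12 tested members had a fold change above 0. Of these 4 were called higher and none lower, where 2.55% of all genes tested were called. The median log2 change was 0.56 (0.39 on the TPM scale, over the 11 members in that fit). S100A1 was at 71.8, 67 and 90.8 CPM under DMSO and at 181, 159.9 and 168 CPM under PQY23_1, with the treated libraries above all controls (2.22-fold; log2 1.15 ± 0.16, adjusted p = 0.01). S100A11 read 54.5, 48.6 and 46.7 CPM in the controls and 106, 86.8 and 87 CPM in the treated libraries (1.87-fold; log2 0.90 ± 0.11, adjusted p = 0.006). S100A3 rose by 1.07 ± 0.17 (adjusted p = 0.016) and S100A2, at a low level, by 1.54 ± 0.25 (0.018). S100A6 was at 47.5 ± 13.2 CPM (SD, n = 3) under DMSO and 90.1 ± 16.4 CPM under PQY23_1 and missed the threshold (adjusted p = 0.068). S100A1 overlaps S100A13 on the other strand and S100A3 overlaps S100A4 on the same strand, so their reads may be shared; S100A13 and S100A4 were not called.

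Targets of PXR and CAR, listed together with the PXR gene NR1I2, were called in 1 direction. Of 15 tested 4 rose and none fell (26.7% called, against 2.55% of all genes tested). The median log2 change was 0.43, with 0.32 on log2(FPKM + 1) and 0.21 on the TPM scale over the members in those fits. PXR and CAR are receptors for foreign compounds that bind drugs and bile acids and switch on oxidation, conjugation and export genes. CYP3A5, a cytochrome P450, was at 13.1, 13.2 and 13.1 CPM under DMSO and 22.7, 24.9 and 25.1 CPM under PQY23_1 (1.84-fold; log2 0.88 ± 0.08, adjusted p = 0.0018). The controls were nearly identical and all treated values lay above them. The PXR gene NR1I2 itself rose from 13, 15 and 13.8 CPM to 19.9, 19.9 and 20.4 CPM (log2 0.52 ± 0.08, adjusted p = 0.013). GSTA2, a glutathione transferase, rose from 25.7 ± 0.879 to 43 ± 3.69 CPM (log2 0.75 ± 0.07, adjusted p = 0.0023), and the canalicular pump ABCC2 by 0.43 ± 0.08 (0.026). The call of ABCC2 was kept in 1 leave-out, and 2 of the 4 calls were kept in all 9. CYP3A4, the classical PXR target, had too few counts to compare, at 0.1 ± 0.143 CPM under DMSO and 0.284 ± 0.128 CPM under PQY23_1. CYP3A and GSTA genes each have close copies with which reads can be shared.

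UGT1A3, which conjugates glucuronic acid to drugs and bile acids, had the largest rise among genes with at least 5 CPM in the higher group. It was at 1.07, 0.675 and 0.648 CPM under DMSO and at 5.21, 4.7 and 8.63 CPM under PQY23_1. Treated replicate 3 was the highest, and even the lowest treated value was several times the highest control (7.76-fold; log2 2.96 ± 0.29, adjusted p = 0.0023). The UGT1A genes share their last exons on 1 strand (chromosome 2, UGT1A3 at 233729108 to 233773299), so the reads assigned to each are uncertain. UGT1A1 was at 2.6 ± 0.715 CPM under DMSO and 4.98 ± 1.02 CPM under PQY23_1 and was not called (adjusted p = 0.37). Of 12 tested UGT genes UGT1A3 was the 1 call (8.33%, against 2.55% of all genes tested), with a median log2 change of 0.50. Over the fewer members in the limma fits, the median was 0.17 on log2(FPKM + 1) and 0.07 on the TPM scale.

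Of 23 tested glutathione transferases and sulfotransferases, 5 rose and none fell (21.7% called, against 2.55% of all genes tested, with a median log2 of 0.23, and 0.11 on the TPM scale). Beside GSTA2 these were the peroxisomal and mitochondrial GSTK1 (log2 0.50 ± 0.07, adjusted p = 0.01), MGST1, SULT1A1 and SULT2A1, the last 3 with log2 values of 0.40, 0.36 and 0.28. Each of these 3 calls was kept in at most 1 leave-out. Targets of NRF2, the sensor of electrophiles and oxidants, were split, with 4 of 27 higher and 1 lower (18.5% called, median log2 0.07, and -0.05 on the TPM scale). The export pump ABCC3 went from 55.4, 50.5 and 54.3 CPM to 82.3, 85.7 and 82.1 CPM, without overlap (1.56-fold; log2 0.64 ± 0.06, adjusted p = 0.0012). The epoxide hydrolase EPHX1 rose by 0.57 ± 0.09 (adjusted p = 0.018). The textbook NRF2 targets HMOX1 (log2 -0.09 ± 0.06, adjusted p = 0.58) and NQO1 (0.23 ± 0.06, 0.092) were not called, and the cystine transporter SLC7A11 was the member that fell. AKR1B10, an aldo-keto reductase, was the 1 call among 11 of its family, with 629 ± 36 CPM under DMSO and 801 ± 51.5 CPM under PQY23_1 (log2 0.35 ± 0.07, adjusted p = 0.038), and 1 leave-out kept it. None of 11 tested aryl hydrocarbon receptor targets was called, though 9 lay above 0. Their median log2 was 0.23 and their mean 0.92, with a median of -0.002 on the TPM scale. None of 21 aldehyde and alcohol dehydrogenases was called either (median log2 0.10, mean 0.30, and a median of -0.06 on the TPM scale). MT2A, a metallothionein that binds zinc and copper, rose from 119 ± 7.77 to 192 ± 21.4 CPM (log2 0.69 ± 0.11, adjusted p = 0.017).

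Iron genes were called in both directions, with 2 of 19 tested members higher and 2 lower (21.1% called, against 2.55% of all genes tested, with a median log2 of -0.08). HAMP encodes hepcidin, the hormone that lowers iron export into plasma (chromosome 19, 35280716 to 35285143). It was at 20.1, 17.9 and 19.4 CPM under DMSO and at 50.5, 46.2 and 52.7 CPM under PQY23_1, with every treated value above every control (2.61-fold; log2 1.38 ± 0.11, adjusted p = 0.00078). FTL, the ferritin light chain that stores iron, was among the most abundant called genes, at 11078, 10374 and 10652 CPM under DMSO and 15259, 12942 and 13178 CPM under PQY23_1. Its rise was small (1.29-fold; log2 0.37 ± 0.07, adjusted p = 0.028), was kept in 4 of the 9 leave-outs, and FTL has many processed pseudogenes. TF, the plasma iron carrier transferrin (chromosome 3, 133746040 to 133778784), fell from 3563, 3352 and 3710 CPM to 2686, 2620 and 2714 CPM, with no overlap (1.32-fold lower; log2 -0.41 ± 0.05, adjusted p = 0.0047). The metal importer SLC39A14 fell by 0.36 ± 0.07 (adjusted p = 0.027), kept in 3 leave-outs.

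Of 22 tested acute phase and interleukin 6 genes 4 rose and none fell (18.2% called, against 2.55% of all genes tested, with a median log2 of 0.03, and -0.13 on the TPM scale). SOCS3, a feedback inhibitor of cytokine signalling, was at 1.36, 1.44 and 1.52 CPM under DMSO and 3.87, 2.5 and 3.85 CPM under PQY23_1 (log2 1.24 ± 0.19, adjusted p = 0.015). Haptoglobin (HP), which binds free haemoglobin, rose from 139.7 ± 6.47 to 198 ± 4.18 CPM (log2 0.50 ± 0.07, adjusted p = 0.013). The serum amyloid gene SAA4 rose by 0.59 ± 0.08 (0.011) and the inter-alpha-trypsin inhibitor chain ITIH3 by 0.32 ± 0.06 (0.03). APOA2, a protein of high density lipoprotein, was the 1 call among 20 apolipoprotein genes and went from 1463, 1452 and 1353 CPM to 2128, 1823 and 1805 CPM (1.35-fold; log2 0.43 ± 0.08, adjusted p = 0.023).

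Tyrosine breakdown held 1 of the largest changes among abundant genes. HPD, the dioxygenase that makes homogentisate (chromosome 12, 121839527 to 121863596), was at 359.7, 339.6 and 346 CPM under DMSO and at 726, 637 and 660.2 CPM under PQY23_1. The groups were far apart even at their nearest values (1.94-fold; log2 0.95 ± 0.06, adjusted p = 0.00035). FAH, the last enzyme of the pathway, rose from 54.6 ± 2.75 to 85.8 ± 7.89 CPM (log2 0.65 ± 0.07, adjusted p = 0.0042). These 2 were the calls among 10 tested genes of phenylalanine and tyrosine breakdown (20% called, against 2.55% of all genes tested). The median log2 of the list was 0.08, and -0.05 on the TPM scale. NOS3, the endothelial nitric oxide synthase (chromosome 7, 150991017 to 151014588), gave 20, 19.7 and 17.8 CPM under DMSO and 44.5, 46.8 and 43.8 CPM under PQY23_1, so that every treated value lay above every control (2.35-fold; log2 1.23 ± 0.08, adjusted p = 0.00035). ATG9B overlaps NOS3 on the other strand. In the endothelial marker list, which does not hold NOS3, the receptor TIE1 rose from 1.7, 2.05 and 1.63 CPM to 3.93, 3.88 and 3.97 CPM (log2 1.13 ± 0.17, adjusted p = 0.013). TIE1 was the 1 call among 6 tested members, of which 3 lay above 0. KDR, TEK, CLEC4G and ERG were at 0 in all 6 libraries.

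Glucose genes were called in both directions, with 4 of 27 tested transporters and glycolysis genes higher and 1 lower (18.5% called, against 2.55% of all genes tested). The median log2 change was 0.07, and -0.06 on the TPM scale. SLC2A3, a high affinity glucose transporter (chromosome 12, 7919230 to 7936187), was at 152, 173 and 162 CPM under DMSO and at 66.3, 77.5 and 65.7 CPM under PQY23_1. The highest treated value was well below the lowest control (2.33-fold lower; log2 -1.22 ± 0.09, adjusted p = 0.00049). SLC2A2, the transporter typical of hepatocytes, rose by 0.43 ± 0.09 (adjusted p = 0.039), a call that no leave-out kept. The liver pyruvate kinase PKLR rose from 24.4 ± 1 to 37.8 ± 3.34 CPM (log2 0.63 ± 0.08, adjusted p = 0.006), the phosphofructokinase PFKP by 0.74 ± 0.11 (0.012) and the regulatory enzyme PFKFB1 by 0.84 ± 0.16 (0.031). No leave-out kept the call of PFKFB1.

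PKLR is also a target of ChREBP, which with its relative MondoA reads glucose metabolites. Of 10 tested genes of that list 3 rose and 1 fell (40% called, against 2.55% of all genes tested). The median log2 was 0.12, and -0.009 on the TPM scale. The glycerol phosphate dehydrogenase GPD1 rose from 28.5, 28.5 and 28 CPM to 48, 42.7 and 45.5 CPM (1.6-fold; log2 0.68 ± 0.06, adjusted p = 0.0018) and the fructokinase KHK by 0.73 ± 0.13 (adjusted p = 0.026). TXNIP, a glucose-induced arrestin that limits glucose uptake, fell from 32.5, 36.6 and 33.9 CPM to 18.9, 17.6 and 18.5 CPM, with all treated values below all controls (1.87-fold lower; log2 -0.91 ± 0.07, adjusted p = 0.00088). In the gluconeogenesis list the pyruvate carboxylase PC rose (log2 0.54 ± 0.09, adjusted p = 0.017) and the coactivator PPARGC1A fell (-0.50 ± 0.09, 0.031). Of 24 tested genes of the insulin, FOXO and IGF axis 4 fell and 2 rose (25% called). The median log2 of this list was -0.03, and -0.18 on the TPM scale. IGFBP1, a binding protein repressed by insulin, was at 85.7, 103 and 104 CPM under DMSO and 53.8, 48.2 and 46.8 CPM under PQY23_1 (1.97-fold lower; log2 -0.98 ± 0.14, adjusted p = 0.011). FOXO1, the insulin-restrained transcription factor, fell by 0.49 ± 0.08 (adjusted p = 0.017), FOXO3 by 0.53 ± 0.11 (0.043; kept in no leave-out) and the receptor IGF1R by 0.46 ± 0.07 (0.017). IGFBP2 and IGFBP6 rose by 0.69 and 0.55, and no leave-out kept either call.

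Lipid genes were called at 11.1% (cholesterol synthesis and uptake), 7.69% (fatty acid and triglyceride synthesis) and 18.2% (lipid droplets and PPARA) of tested members, against 2.55% of all genes tested. Of 27 tested genes of cholesterol synthesis and uptake 3 rose and none fell (median log2 0.12, and -0.02 on the TPM scale). They were the oxidase MSMO1 (log2 0.53 ± 0.09, adjusted p = 0.017), the decarboxylase MVD (0.44 ± 0.07, 0.018) and the cyclase LSS (0.30 ± 0.06, 0.048). No leave-out kept the call of LSS, and none of the 3 was kept in all 9. Of 26 fatty acid and triglyceride synthesis genes 1 rose and 1 fell. ACSS2, which makes acetyl-CoA from acetate, went from 86.3, 81.3 and 88.6 CPM to 123, 127 and 131 CPM (1.49-fold; log2 0.57 ± 0.05, adjusted p = 0.0022), and the acyltransferase GPAM fell by 0.39 ± 0.07 (adjusted p = 0.03). Among 22 lipid droplet and PPARA genes 3 rose and 1 fell. VNN1, a pantetheinase and PPARA target, was at 1.87, 1.47 and 1.94 CPM under DMSO and 4.86, 5.48 and 4.99 CPM under PQY23_1 (2.9-fold; log2 1.54 ± 0.17, adjusted p = 0.0039). The lipid droplet protein CIDEC rose by 0.89 ± 0.16 (adjusted p = 0.029) and the peroxisomal enzyme EHHADH by 0.41 ± 0.06 (0.01). PLIN2, which coats lipid droplets, fell from 341, 355 and 353 CPM to 233, 227 and 214 CPM (1.56-fold lower; log2 -0.64 ± 0.06, adjusted p = 0.0012).

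Cyclin dependent kinase and cell cycle lists were called at 0% to 3.33% of tested members, against 2.55% of all genes tested. None of 28 tested cyclin dependent kinases and cyclins and none of 28 kinase inhibitors and p53 targets was called, with median log2 changes of 0.04 and 0.08. In the S phase list of 36 genes the chaperone CHAF1A was called (log2 0.29 ± 0.06, adjusted p = 0.033), which no leave-out kept, and among 30 genes of G2 and mitosis the hyaluronan receptor HMMR (0.34 ± 0.06, 0.018). There were no calls among 30 ribosomal proteins, 30 nuclear genes of oxidative phosphorylation, 13 mitochondrially encoded protein genes, 27 proteasome subunits or 26 chaperones of the endoplasmic reticulum. Of the mitochondrially encoded genes 12 lay above 0 (median log2 0.24, and 0.12 on the TPM scale). These values are mRNA levels and measure neither kinase activity nor cell cycle phase. The cytosolic heat shock list and the autophagy and lysosome list held a larger share of calls. Of 26 cytosolic heat shock genes 3 rose (11.5% called): HSPA1B (0.51 ± 0.07, adjusted p = 0.0075), its near-identical copy HSPA1A (0.44 ± 0.06, 0.011) and HSPH1 (0.27 ± 0.05, 0.021). In the autophagy and lysosome list 4 of 31 rose and 1 fell (16.1% called). MAP1LC3B, a protein of the autophagosome membrane, went from 79.2, 88.6 and 91.1 CPM to 147, 137 and 134 CPM (1.61-fold; log2 0.69 ± 0.07, adjusted p = 0.0023), followed by the proton pump subunit ATP6V0D1 (0.36), the protease CTSD (0.37) and the lipase LIPA (0.27), with the membrane protein LAMP2 lower (-0.26). At most 1 leave-out kept the calls of CTSD, LIPA and LAMP2. Among 17 keratin and biliary genes (17.6% called) KRT19 and SOX4 rose by 0.53 and 0.52 (adjusted p = 0.021 and 0.017), and KRT18 fell by 0.37 (0.013). In the list of ATF4 targets and amino acid supply 15 of 31 fell and 1 rose (51.6% called, median log2 -0.39). Outside that list the amino acid transporter SLC6A14 was at 148, 157 and 167 CPM under DMSO and 68.7, 75.4 and 80.6 CPM under PQY23_1 (2.1-fold lower; log2 -1.07 ± 0.08, adjusted p = 0.00081).

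**Figure D3:**
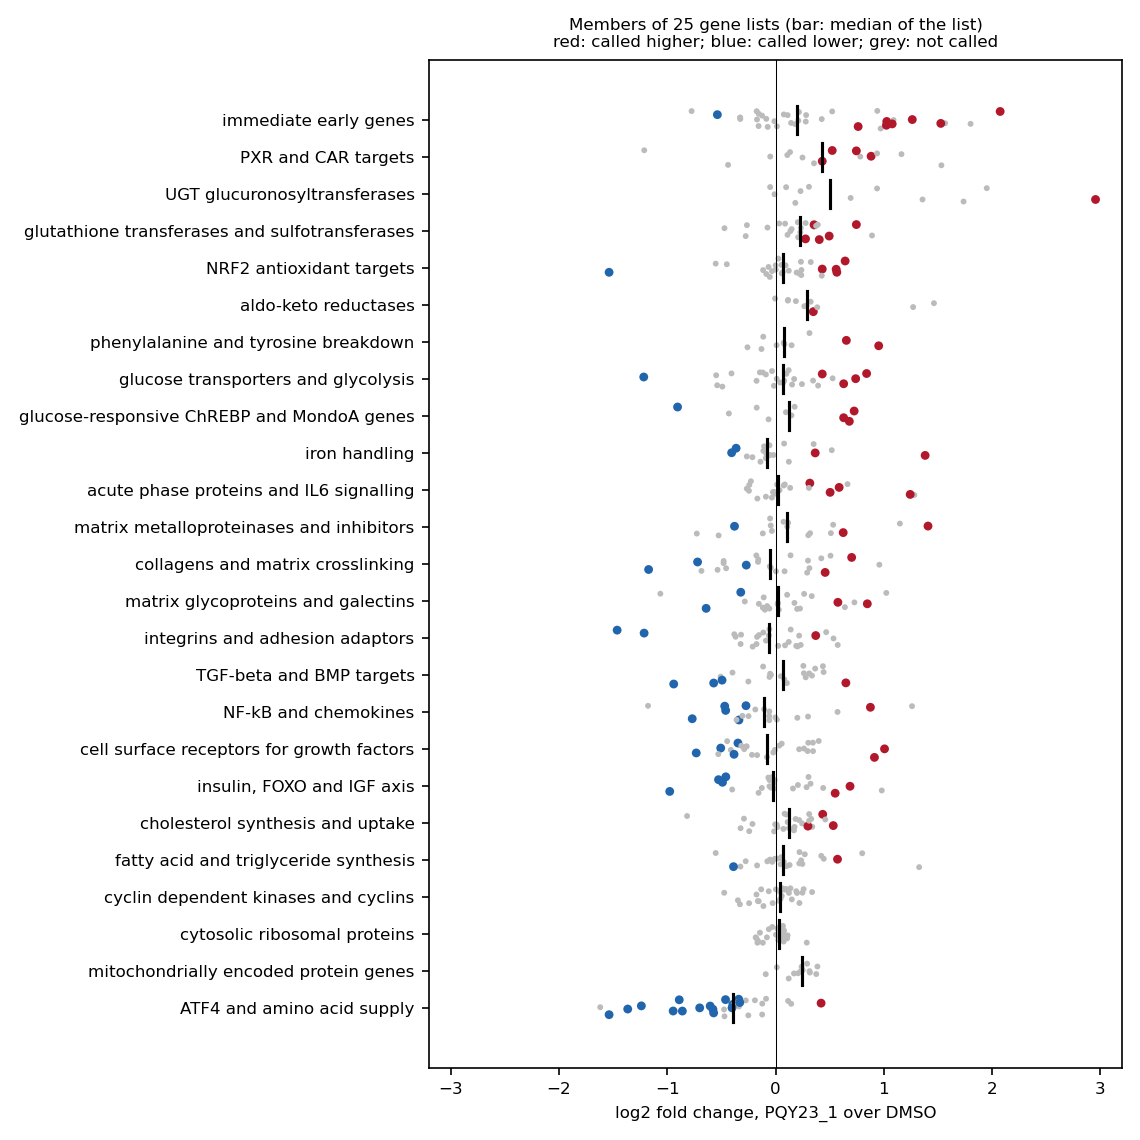
Log2 fold change under PQY23_1 (horizontal axis) of the tested members of 25 gene lists (rows), where each point is a gene and the black bar is the median of the list. Red points are called higher and blue points called lower; the PXR and CAR, UGT and glutathione transferase rows hold red points and no blue ones, ribosomal proteins and cyclin dependent kinases hold neither, and the ATF4 row holds 15 blue points.

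Values for PQY09 are set beside those of PQY23_1 because both were given at 50 µM and PQY23_1 is named as its derivative. The comparisons with DMSO share the control libraries, so the difference between the compounds was taken from its own contrast in the same fit, in which 448 of 20157 genes (2.22%) were called. Of the 514 genes called under PQY23_1, 166 also differed between the compounds. Under PQY09, 173 of the 514 were called in the same direction, where 2.85% of all genes tested were called. The PQY23_1 libraries that selected the 514 also enter the contrast between the compounds, which favours a difference in such genes. Among the 15 largest rises and 15 largest falls, which were chosen by their change under PQY23_1, 10 and 8 differed. VKORC1L1 was at 24.5 ± 1.3 CPM under DMSO, 66.5 ± 1.03 under PQY23_1 and 24 ± 0.633 under PQY09 (SD, n = 3), and PQY23_1 lay above PQY09 by a log2 of 1.47 ± 0.06 (adjusted p = 3.9e-05). TIMP1 was at 51.3 ± 3.84 CPM under PQY09, below PQY23_1 by a log2 of 1.82 ± 0.09 (6.9e-05).

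COL2A1 was called in opposite directions: log2 -1.17 under PQY23_1 and 0.59 (adjusted p = 0.0041) under PQY09, a difference of -1.76 ± 0.07 (adjusted p = 3.9e-05). The same held for TF, with -0.41 and 0.44 (difference -0.85 ± 0.05, 0.0001), for LGALS1, with 0.85 and -0.28 (1.12 ± 0.05, 4e-05), for TGM2, with 0.46 and -0.51 (0.97 ± 0.06, 0.00033), for MT2A, with 0.69 and -0.54 (1.23 ± 0.11, 0.0011) and for IGFBP6, with 0.55 and -0.79 (1.34 ± 0.10, 0.00059). UGT1A3 was at 0.527 ± 0.0407 CPM under PQY09 and lay 3.55 ± 0.30 above it under PQY23_1 (0.00084). S100A11 differed by 1.23 ± 0.11 (0.0011), NOS3 by 1.17 ± 0.08 (0.00033) and HPD by 0.77 ± 0.06 (0.0006). JUN was higher under PQY09, at 253 ± 19.4 CPM against 114 ± 16.9 CPM (difference -1.15 ± 0.11, 0.0012), and so were ACSS2 (-1.07 ± 0.06, 6.9e-05) and EGR1 (-1.04 ± 0.20, 0.035).

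Other changes were not told apart between the compounds. The PQY23_1 minus PQY09 difference in log2 was -0.37 for HAMP (95% interval -0.60 to -0.13, adjusted p = 0.13), -0.28 for FOS (-1.02 to 0.45, 0.77), -0.44 for DUSP1 (-0.77 to -0.11, 0.2) and -0.23 for CYP3A5 (-0.41 to -0.05, 0.22). It was -0.03 for MAP1LC3B (-0.19 to 0.12, 0.89) and -0.10 for PLIN2 (-0.23 to 0.02, 0.45). A p that misses the threshold does not show that the compounds act alike on these genes.

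**Figure D4:**
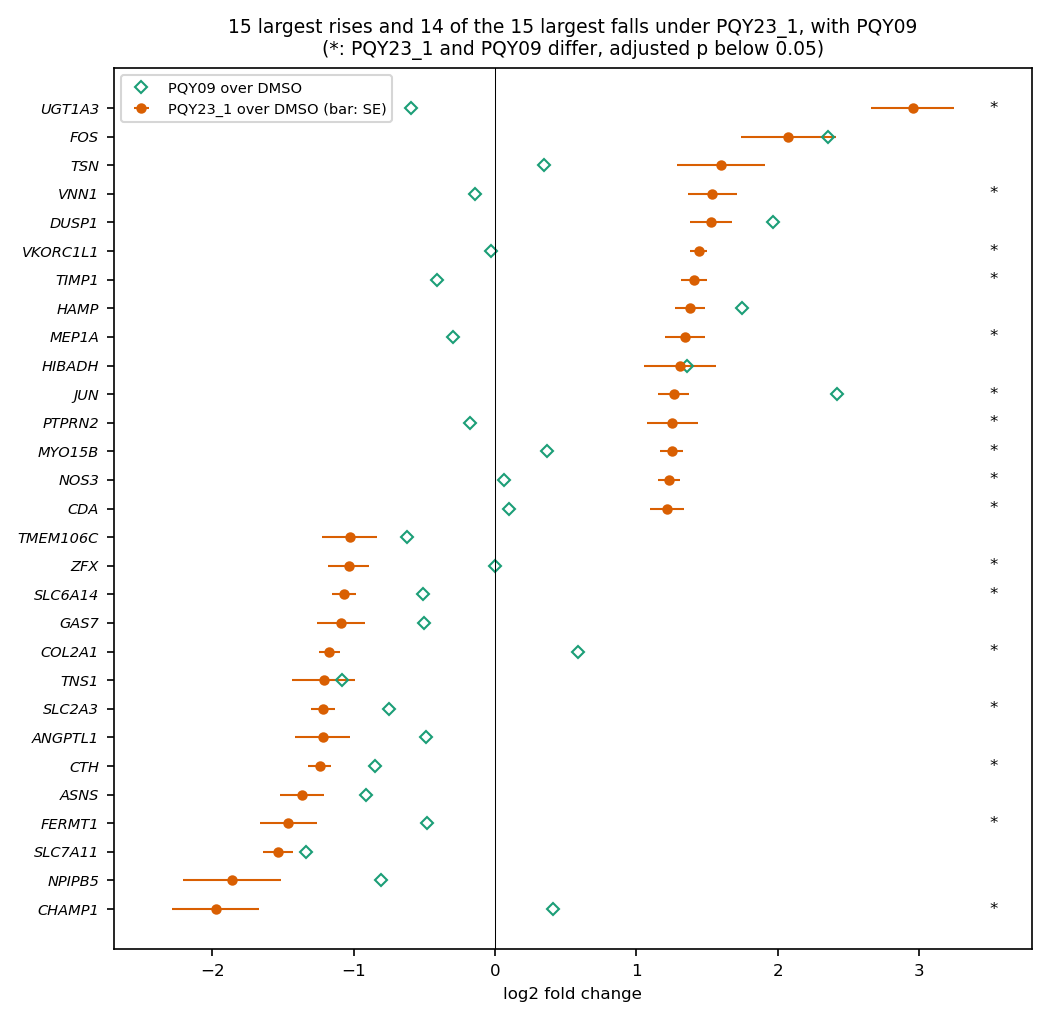
Log2 fold change over DMSO (horizontal axis) of the 15 largest rises and 14 of the 15 largest falls under PQY23_1 (rows), with PQY23_1 as filled circles with SE bars and PQY09 as open diamonds. A star marks genes whose difference between the compounds passed an adjusted p of 0.05; VKORC1L1, TIMP1 and COL2A1 have diamonds near or on the other side of 0, while FOS and HIBADH have diamonds within the SE bars.

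Several of the 15 largest rises and falls lost their call without single libraries. CHAMP1, a chromosome alignment protein, was at 36.8, 28.1 and 15.8 CPM under DMSO and 5.76, 8.82 and 5.93 CPM under PQY23_1, with controls that differed among themselves (3.94-fold lower; log2 -1.98 ± 0.31, adjusted p = 0.015; kept in 6 of the 9 leave-outs). TSN, the nucleic acid binding protein translin, gave 37.9, 69.5 and 40.1 CPM and 159, 139 and 149 CPM (log2 1.60 ± 0.31, adjusted p = 0.034; kept in 3). HIBADH, an enzyme of valine breakdown, gave 44.1, 37.5 and 39.5 CPM and 128, 116 and 55.8 CPM, and treated replicate 3 was close to the controls (log2 1.31 ± 0.26, adjusted p = 0.037; kept in 1). NPIPB5 belongs to a multigene family of near-identical copies, and its fall from 122 ± 8.74 to 33.6 ± 2.47 CPM was kept in 3. TMEM106C, a membrane protein, fell from 68 ± 4.27 to 33.3 ± 1.18 CPM, kept in 2. The rises of the metalloprotease MEP1A (log2 1.34 ± 0.14), the myosin MYO15B (1.25 ± 0.08) and the cytidine deaminase CDA (1.22 ± 0.12) were kept in all 9, and that of the phosphatase-like receptor PTPRN2 (1.26 ± 0.18) in 8. ANGPTL1, GAS7 and ZFX were also among the 15 falls, with log2 values of -1.22, -1.09 and -1.03. At the edge of the 15 rises the log2 change was 1.22 for the last gene inside and 1.16 for the first outside, and at the edge of the falls it was -1.03 and -0.98.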

How the data were processed

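RNA of HepG2 cells was sequenced in 3 DMSO, 3 PQY23_1 and 3 PQY09 libraries. Per the submitters' processing notes, the tools were HISAT2 2.0.4, cutadapt 1.9 and StringTie 1.3.4d, with DESeq2 and edgeR, in no stated role, and the build was hg38. No annotation release or strand setting was found in the sources used here. The deposited expected counts (estimated counts) are whole numbers per gene, whose low values pile up at 4 (10696 values, against 4024 at 3 and 2277 at 5), and how many counts 1 fragment gave is unknown. The deposited FPKM values, which the authors scaled by gene length and library size, hold 1e-04 wherever the count is 0 and were used for alternatives only.

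Counts were used as deposited. The filterByExpr function, at a minimum count of 10 and a minimum total of 15, kept 20157 genes. TMM factors for scaling ran from 0.977 to 1.026. The 9 libraries together were fitted in edgeR 4.0.16 (R 4.3.3) with a mean per group, and PQY23_1 minus DMSO was tested with the quasi-likelihood F test, two-sided, with Benjamini-Hochberg adjustment over all genes tested. PQY23_1 minus PQY09 came from the same fit. Calls are at an adjusted p below 0.05. The SE is the log2 change divided by the square root of F, intervals are 95%, and SDs are over 3 libraries. The test was first tried on simulated counts with known changes in genes with at least 5 CPM. It recovered 37.3% of 1.5-fold, 71.6% of 2-fold and 100% of 4-fold changes, and 2.8% of its calls were false. Small changes can therefore be missed, also in lists without calls. The simulated counts were independent and used the spread fitted to these data, so the 2.8% does not carry over to the calls reported here.

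Members and gene lists (60 lists, 1204 symbols tested) were chosen with earlier results of these data known, so they are described by counts and medians with no set test. Named genes are, first, the 15 largest changes in each direction among called genes with non-overlapping groups and at least 5 CPM in the higher group, the called members of lists, and genes marked as chosen after their values were seen (COL7A1, TGFBR3, VKORC1, GGCX, UGT1A1, CYP3A4, HMOX1 and the S100 genes; also list members beyond the 5 of lowest p). Results of some genes under this rule are not reported here. Medians on the TPM scale come from limma 3.58.1 on log2(TPM + 1), with FPKM rescaled to equal sums, over genes with at least 1 FPKM in 3 libraries. Members below that level are left out, so these medians and the main ones can cover different genes. Medians on log2(FPKM + 1) use the same genes without the rescaling. Promoters are from RefSeq (GRCh38.p14); coordinates of genes are those of the file (hg38, from 1). Alternatives changed the filter, the scaling, the tool (DESeq2 1.42.0, limma-voom), the libraries in the fit and the unit. No library was left out of the main fit.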

Additional observations from a re-analysis of the deposited data

How the results depend on the processing

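The counts of 305 higher and 209 lower genes moved with the tool, the filter, the libraries in the fit and the TPM scale. They were 198 and 161 with no filter on low counts, 123 and 101 with the DMSO and PQY23_1 libraries alone, 802 and 678 with DESeq2, 367 and 343 with limma on log2(FPKM + 1), 362 and 334 with a pseudocount of 0.1, and 155 and 591 on the TPM scale. With the replicate number as a block they were 136 and 101. Whether the numbers pair the samples is not stated in the sources used here, and the main fit does not use them. In deviations from the group mean, same-numbered DMSO and PQY23_1 libraries had correlations of 0.13, 0.0536 and 0.0752 over 10848 genes. Differently numbered libraries had correlations from -0.136 to 0.0735, and DMSO replicate 2 correlated best with PQY23_1 replicate 3 (0.0735). These values do not decide whether the samples are paired. Leaving out 1 library gave 76 to 205 higher and 62 to 166 lower, lowest without DMSO replicate 2. Upper quartile, library size and RLE scaling, limma-voom, a 1 CPM filter and counts divided by 4 stayed within 1.5 times of both counts.

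Of the 157 genes examined singly, 156 kept their direction throughout; the log2 change of VKORC1, which was not called, ran from -0.0179 without PQY23_1 replicate 3 to 0.8463 without PQY23_1 replicate 2. Calls were lost for 95 genes without DMSO replicate 2, 71 in the fit of 6 libraries, 63 under the block, 30 on the TPM scale, 1 with limma-voom and 0 with DESeq2. Counting precision and the unknown number of counts per fragment limit genes near 1 CPM: 5 rises and 8 falls had both group means under 1 CPM.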

Other observations

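Further gene groups are read against 2.55% called over all genes tested, a share that 47 of the 60 lists exceeded. Among protein coding genes 3.53% were called. Of 16 tested urea cycle and nitrogen genes (12.5% called), ASL and NAGS rose (log2 0.30 ± 0.06 and 0.59 ± 0.12), and of 16 genes of tryptophan, histidine and branched chain breakdown (18.75% called), FTCD, KYNU and MMUT rose (0.45 ± 0.06, 0.37 ± 0.08 and 0.33 ± 0.07); of these calls only that of FTCD, a folate-linked enzyme of histidine breakdown, was kept in more than 1 of the 9 leave-outs, with 8. BNIP3L, a mitophagy receptor, was the 1 call among 20 HIF targets and fell by 0.57 ± 0.08. Of 17 histone genes (11.8% called) 1 rose and 1 fell, and the one that rose was the core histone gene H2BC21 (0.67 ± 0.14; kept in no leave-out). None of 22 ribosome biogenesis, 16 bile acid and 15 LXR genes was called, with median log2 changes of -0.06, 0.15 and 0.17. TNFRSF10B was the 1 call among 27 apoptosis regulators. CEBPG fell and NR1I2 rose among 28 liver transcription factors.

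By transcript class, 299 rises and 193 falls were among 13920 protein coding genes, and 3 rises and 10 falls among 3566 long noncoding RNAs. UCA1, a long noncoding RNA known from carcinomas, stood at 5.20, 3.41 and 3.38 CPM under DMSO and at 7.33, 9.80 and 11 CPM under PQY23_1 (log2 1.23 ± 0.23, edgeR adjusted p = 0.028; kept in 4 of the 9 leave-outs). CD79A, a B cell receptor component in the leukocyte list, was at 1.47, 1.12 and 1.2 CPM under DMSO and 3.32, 3.59 and 3.49 CPM under PQY23_1 (log2 1.45 ± 0.21, edgeR adjusted p = 0.011), while PTPRC was at 0.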
